A study of Saccharomyces cerevisiae with 8 samples.

Results

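Open chromatin of haploid MATa budding yeast (S288c background) was compared between 2 strain codes, 8 and 11, at 180 min after beta-estradiol was added. The data are the 2 ATAC-seq peak lists of that time, with 6588 sub-peak summits in code 8 and 6654 in code 11, which together are 13242 of the 27173 summits in the 4 lists of the series. Summits of the 2 lists were paired when each was the nearest to the other and they lay within 50 bp. This gave 5969 pairs, and left 619 summits called in code 8 only and 685 called in code 11 only.

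The study set cells labelled cen4- t180 beside cells labelled CEN4 t180, with 2 independent experiments of each and 1 µM beta-estradiol in both. In the cen4- cells, lox recombination sites flanked the centromere of chromosome IV and Cre recombinase had cut it out, while the control strain CEN4 has no lox sites there. The corresponding groups at 0 min, CEN4* t0 (lox sites present, centromere not yet excised) and CEN4 t0, had no treatment. No label ties code 8 or code 11 to either strain, so the codes keep their numbers and no strain was read from the peaks. What drives Cre, whether the control carries it, and how many cells lost the centromere are all not given in the sources used here. Each code has 1 list per time, with no replicate number. Differences are therefore given as counts, levels and medians with no test between conditions, and intervals cover counting error only.

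In ATAC-seq the Tn5 transposase cuts and tags DNA that nucleosomes or other proteins leave exposed, so summits gather at the nucleosome-depleted regions upstream of genes. A budding yeast centromere is a short DNA element that holds a single specialised nucleosome and builds the kinetochore, which attaches the chromosome to the spindle. A chromosome without it is no longer pulled to the spindle poles in anaphase. Cohesin, which gathers around centromeres, holds sister chromatids together, and condensin compacts them for segregation.

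Promoter calls at genes specific to a cell type were read first. All 7 MATa-specific genes, among them MFA1 and MFA2 (the mating pheromone a-factor), had a promoter summit in both lists. Of 4 MATalpha-specific genes, 1 had one in code 8 and 2 in code 11. The MATalpha-specific STE3 had one in both, with relative pileups (defined below) of 2.19 in code 8 and 2.37 in code 11. Of 10 meiotic genes, 2 had one in code 8 and 3 in code 11. Of all 6002 protein-coding genes, 3877 had one in code 8 and 3857 in code 11. These calls alone cannot establish the mating type. The lists covered 2033.7 kb in 3595 regions in code 8 and 2033.0 kb in 3622 regions in code 11. Read numbers are unknown, since the lists give none. Heights are given as relative pileup, the number of fragments over a summit divided by the genome-wide background of its list, which was 439.2 fragments in code 8 and 512.2 in code 11. In a bulk population this level cannot tell more cells with an open site from more cuts per cell. The divisor is 1 value for the whole list, so more DNA copies of a chromosome would also raise the level of its summits. Copy number was not tested. A log2 difference is that of relative pileup, code 8 over code 11.

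The 2 maps were largely the same. The pairs made up 90.6% of code 8 summits and 89.7% of code 11 summits, and the median distance within a pair was 3 bp. The summits called in 1 code made up 9.4% of the code 8 list (8.70 to 10.1%) and 10.3% of the code 11 list (9.57 to 11.1%). They were low. Their median relative pileup was 1.62 in code 8, where paired summits had 3.18, and 1.57 in code 11, where paired summits had 3.28. Of them, 272 in code 8 (43.9%) and 306 in code 11 (44.7%) lay inside a region of the other list, so that only the position or number of summits differed. The remaining 347 in code 8 and 379 in code 11 lay where the other list had no region.

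Where these summits lay differed between the codes. Chromosome IV held 210 of its 1038 code 8 summits without a code 11 partner (20.2%, 17.8 to 22.8%), against 42 of its 870 code 11 summits without a code 8 partner (4.83%, 3.50 to 6.47%). On the other 15 chromosomes together the order was the opposite, with 409 of 5550 code 8 summits (7.37%) and 643 of 5784 code 11 summits (11.1%). No other chromosome had a code 8 share above 10.4% (III) or a code 11 share below 7.14% (V). Outside regions of the other list the contrast was wider, with 163 summits on chromosome IV in code 8 (15.7%) and 11 in code 11 (1.26%). Chromosome IV thus held 15.8% of all code 8 summits and 47.0% of the code 8 summits that lay outside code 11 regions. The number of code 8 summits divided by that of code 11 was 1.19 on chromosome IV, and ran from 0.914 (VI) to 1.01 (V) on the others.

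**Figure D1:**
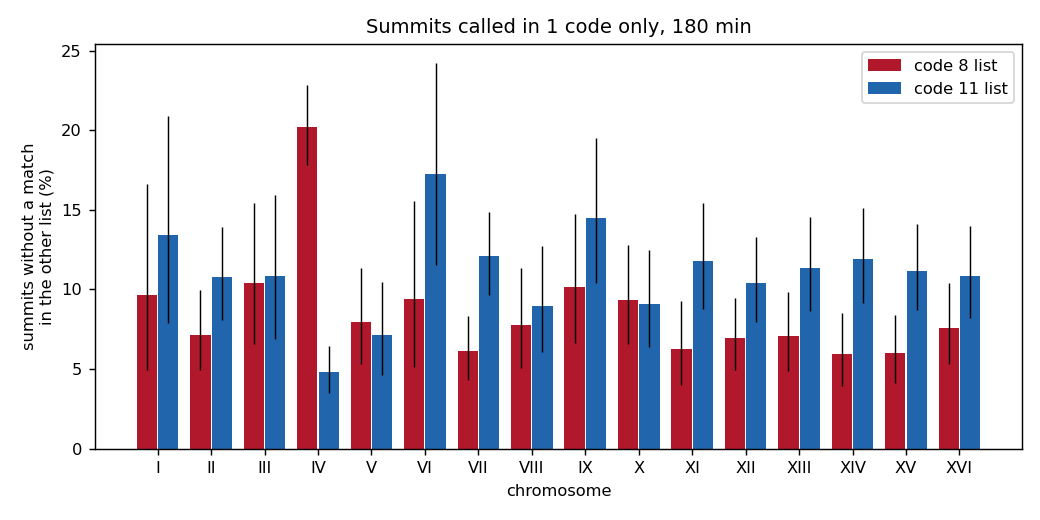
Share of the summits of each 180 min list that had no partner within 50 bp in the other list (y axis, %), for the 16 nuclear chromosomes (x axis), with code 8 in red and code 11 in blue. Bars carry exact 95% intervals of counting error, and chromosome IV stands out with 20.2% in code 8 and 4.83% in code 11.

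Whole regions showed the same split. In code 8, 133 of 3595 regions (3.7%) overlapped no code 11 region, and 50 of them were among the 521 regions of chromosome IV (9.60%, 7.21 to 12.5%). In code 11, 153 of 3622 regions (4.22%) overlapped no code 8 region, and 3 of them were among the 486 of chromosome IV (0.617%, 0.127 to 1.79%). The 0 min lists show which of these sites were called before beta-estradiol. Of the 163 code 8 summits of chromosome IV outside code 11 regions, 124 (76.1%) had no partner in either 0 min list. Of the 184 such summits on the other chromosomes, 60 (32.6%) had none and 74 (40.2%) had one in both. Of the 368 code 11 summits of the other chromosomes outside code 8 regions, 111 (30.2%) had no 0 min partner, 146 (39.7%) had one in both lists, and 76 (20.7%) had one in code 11 only.

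On chromosome IV the share of code 8 summits without a partner was highest in gene bodies. There, 95 of 246 code 8 gene-body summits (38.6%) lacked a partner, against 17 of 171 in code 11 (9.94%). On the other chromosomes the values were 159 of 1040 in code 8 (15.3%) and 287 of 1171 in code 11 (24.5%). At promoters of 1 gene, chromosome IV had 80 of 493 in code 8 (16.2%) and 13 of 424 in code 11 (3.07%). Divergent promoters, whose window serves genes on both strands, had 16 of 139 in code 8 (11.5%) and 1 of 124 in code 11 (0.806%). Intergenic summits outside these windows had 19 of 160 in code 8 (11.9%) and 11 of 151 in code 11 (7.28%). The median log2 difference of paired summits on chromosome IV was 0.28 in gene bodies, 0.17 at promoters of 1 gene, 0.16 at divergent promoters and 0.14 at other intergenic summits, while the other chromosomes had -0.12, -0.08, -0.06 and -0.08.

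Promoter calls were then read gene by gene, in a window that starts 400 bp before the annotated gene start and ends 100 bp after it. Of 6002 protein-coding genes, 3877 had a promoter summit in code 8 and 3857 in code 11. The summit was called in code 8 only at 148 genes (3.82%) and in code 11 only at 128 (3.32%). Chromosome IV had 40 of the 148 and 5 of the 128. These were 7.16% of its 559 promoters with a code 8 summit and 0.954% of its 524 with a code 11 summit. The shares on the other chromosomes were 3.3% in code 8 and 3.7% in code 11. At 104 of the code 8 genes, 31 of them on chromosome IV, no code 11 region touched the window. At 95 of the code 11 genes, 1 of them on chromosome IV, no code 8 region did.

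The strongest promoter peaks called in code 8 only lay almost entirely on chromosome IV, with 9 of the 10 there. Of all 86 promoter peaks with no code 11 region in the window, a peak shared by genes counted once, 26 lay there. Ranked by the authors' -log10 q, the first was the divergent promoter of QRI1 and POL3 (YDL103C and YDL102W; IV 276599 to 276803, sacCer3). POL3 encodes the catalytic subunit of DNA polymerase delta. The summit had a relative pileup of 2.50 and a -log10 q of 152 in code 8, and none was called in code 11. At 0 min both codes had a summit there, with 2.05 in code 8 and 1.99 in code 11. YDL057W followed with a -log10 q of 115, and the pair FAP7 and CDC36 with 112. FAP7 acts in maturation of the small ribosomal subunit and CDC36 is a subunit of the Ccr4-Not complex. MCO32 on chromosome VII, with 112, was the 1 exception in position. RNH202, a subunit of ribonuclease H2, had 108. RAD9 (YDR217C; IV 903488 to 903679), the adaptor of the DNA damage checkpoint, had 103 and a relative pileup of 2.20. MTF2, SAN1 (a nuclear ubiquitin ligase), YDR239C and SNU56 (a U1 snRNP protein) had from 103 down to 95.3. Of these 10 promoters, 5 had no summit in either 0 min list, among them RAD9, MTF2 and SAN1, and 3 had one in both.

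None of the 10 strongest promoter peaks called in code 11 only lay on chromosome IV. Of all 81 such peaks with no code 8 region in the window, 1 lay there. ADE17 (YMR120C; XIII 509345 to 509670), which encodes the enzyme of the last steps of purine synthesis, had a relative pileup of 3.50 and a -log10 q of 174. At 0 min it had 2.91 in code 8 and 3.06 in code 11, so the code 8 list held the peak at the earlier time. ERP2, a cargo protein of vesicle transport, had a -log10 q of 137. HRD3 (133) and HRD1 (117) encode partners in the ubiquitin ligase that clears misfolded proteins from the endoplasmic reticulum. RCI50 had 125, SHY1 (cytochrome oxidase assembly) 122, and the divergent pair ENV7 and RVB2 121. RVB2 encodes an ATPase of the INO80 and SWR1 remodellers. ROG1 had 115, the pair GET1 and CKB1 113, and MRPL44 (mitochondrial ribosome) 109. At 8 of the 10 a summit was called in both 0 min lists. The exceptions were ENV7 with RVB2, called in code 11 only, and HRD1, called in neither.

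Summits inside genes had a like distribution. Of the 10 strongest gene-body summits called in code 8 only and lying in no code 11 region, 7 were on chromosome IV. Of all 141 such summits, 79 were there. NOP1, which encodes the nucleolar methyltransferase fibrillarin, had the highest -log10 q, 90.4, with a relative pileup of 3.12. It was a further summit in a region (IV 426969 to 427651) that also holds the paired summit at the TSC13 and NOP1 promoter, so the region itself was not particular to code 8. KGD2 (2-oxoglutarate dehydrogenase), UBC13 (ubiquitin conjugation), EAF1 (NuA4 acetyltransferase), KCS1 (inositol pyrophosphate synthesis), MFG1 and DOT1 (methylation of histone H3) were the others on IV, with relative pileups from 2.06 in EAF1 to 1.74 in DOT1. SPE2, ARG1 and MEP1 lay elsewhere. Of the 10, 8 had no summit in either 0 min list. The 10 strongest in code 11 only were all on other chromosomes, and of all 175 such summits 4 were on chromosome IV. The 10 were led by RCF2 on XIV with a relative pileup of 2.90 and a -log10 q of 91.6. The LEU2 summit among them lies in a long region that code 8 regions also overlap. For 7 of these 10, including RCF2, RML2, ELO1 and ZWF1 (glucose-6-phosphate dehydrogenase), both 0 min lists held a summit.

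By the median height of its paired summits, chromosome IV stood apart from every other chromosome. The median log2 difference was 0.18 on chromosome IV (SD over summits 0.17, n = 828) and -0.09 on the others together (SD 0.12, n = 5141), where the chromosome medians lay between -0.11 (XIV) and -0.06 (IX). Chromosome IV thus stood 0.26 above the others, a factor of 1.20. Of its 828 summits, 819 (98.9%) exceeded that median. The distributions overlapped all the same, with 5th to 95th percentiles of -0.01 to 0.52 on chromosome IV and -0.28 to 0.11 elsewhere. At 0 min the same difference between chromosome IV and the others was 0.02, a factor of 1.01, and 509 of 835 summits (61.0%) lay above.

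**Figure D2:**
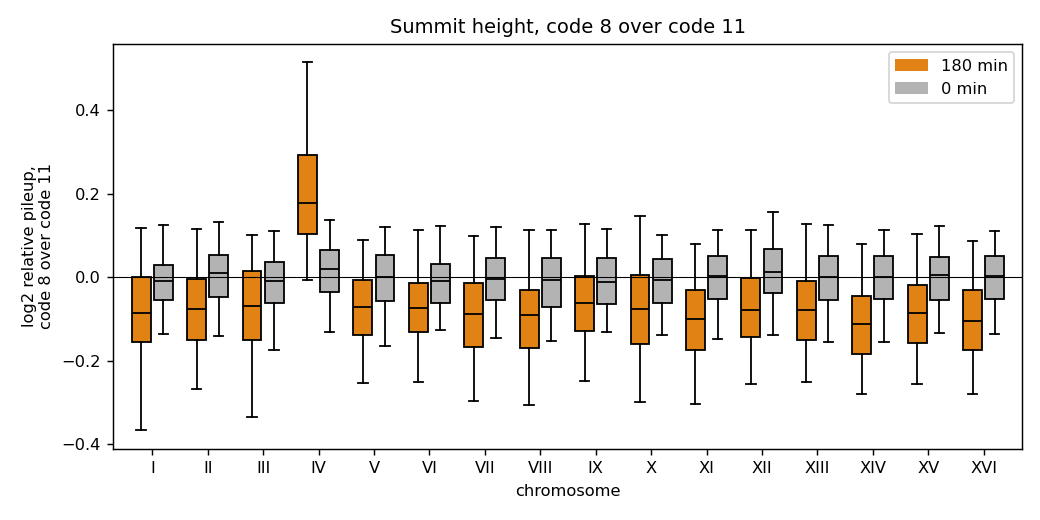
Log2 difference in relative pileup of paired summits, code 8 over code 11 (y axis), per chromosome (x axis), at 180 min (orange) and at 0 min (grey). Boxes span the quartiles around the median line and whiskers the 5th to 95th percentiles; at 180 min the chromosome IV median is 0.18 while the other 15 lie between -0.11 and -0.06, and at 0 min all 16 lie near 0.

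A summit was called higher in code 8 when its relative pileup was at least 25% above that in code 11, and lower by the same fold the other way, at least 20% below. Of all pairs, 179 were higher (3%) and 146 lower (2.45%). On chromosome IV 169 were higher (20.4%) and 0 lower. On the other 15 chromosomes 10 were higher (0.195%) and 146 lower (2.84%). These counts rest on the scale. With heights set to the median of the paired summits outside chromosome IV, which adds 0.09 to every log2 difference, 324 were higher and 43 lower, 289 and 0 of them on chromosome IV, so the share of higher among the calls went to 88.3%, against 55.1% as first scaled. None of the 148 higher summits of chromosome IV that also had a 0 min pair passed this fold at 0 min. Their median log2 difference was 0.44 over all 169 at 180 min, and 0.01 over those 148 at 0 min.

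The local background moved together with these heights. The authors' own fold sets a summit against the background around it, and by that measure chromosome IV stood 0.02 above the others together (log2). Its median was -0.019, within the range of the other chromosome medians, from -0.058 (XIV) to -0.016 (I). By this fold 52 summits were called higher and 72 lower in all (share higher 41.9%), and 41 higher and 13 lower on chromosome IV. Where both lists had a local background more than 5% over the genome-wide one, its log2 difference, code 8 over code 11, was 0.26 on chromosome IV (403 summits) and -0.08 elsewhere (2426 summits). The share of chromosome IV summits with such a raised background was 75.0% in code 8 and 48.7% in code 11. A summit's own fragments and those of its neighbours can enter the local background, and their part in this value was not tested.

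Along chromosome IV the difference reached both ends of the chromosome and was widest around CEN4. In all 31 bins of 50 kb the median exceeded that of the other chromosomes, by 0.15 at 650 to 700 kb up to 0.61 at 400 to 450 kb, beside the centromere. The bin on its other side, 450 to 500 kb, stood at 0.54. By distance from CEN4 the medians relative to the other chromosomes were 0.66 within 10 kb (n = 12), 0.58 from 10 to 25 kb (n = 20), 0.49 from 25 to 50 kb (n = 26), 0.37 from 50 to 100 kb (n = 49), 0.31 from 100 to 200 kb (n = 107) and 0.24 further out (n = 614). The share of summits called higher in code 8 was 100% of the 12 nearest, 85.0% of the next 20, and 12.9% beyond 200 kb. At 0 min the same bands lay between 0.00 and 0.04. Summits within 25 kb of the other 15 centromeres stood at -0.01 to 0.14 on the same scale, and at 13 of the 15 above the rest of their own chromosome. Summits within 25 kb of the outermost genes did not depart from the rest of chromosome IV, with medians of 0.16 (n = 19) there and 0.18 further in.

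**Figure D3:**
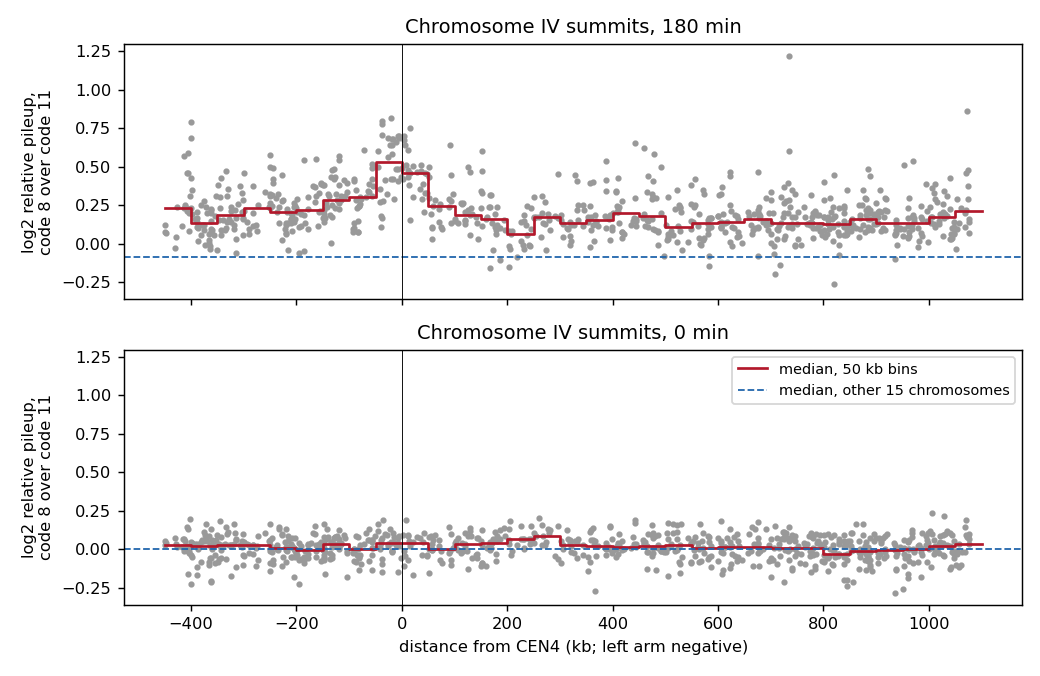
Log2 difference in relative pileup, code 8 over code 11 (y axis), of each paired summit on chromosome IV (grey points) by distance from CEN4 in kb (x axis), at 180 min (top) and 0 min (bottom). The red line is the median in 50 kb bins counted from CEN4 and the dashed line the median of the other 15 chromosomes; at 180 min the red line lies above the dashed line throughout and peaks beside CEN4, and at 0 min the 2 run close together.

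The genes beside CEN4 show these values singly. Of the 12 genes that start within 10 kb, 10 had a promoter summit in both lists and all 10 were higher in code 8. MCD1 (YDL003W), which encodes the kleisin subunit of cohesin, had 4.10 in code 8 and 2.52 in code 11, a log2 difference of 0.70 (0.59 to 0.80). At 0 min MCD1 had 2.97 in code 8 and 2.79 in code 11. RCR2 (YDR003W), of membrane protein trafficking, had 6.75 in code 8 and 4.23 in code 11 (log2 0.67), against 4.50 and 4.54 in codes 8 and 11 at 0 min. RAD57, of recombinational repair, had 2.70 in code 8 and 1.73 in code 11 (log2 0.64). MAF1, the repressor of RNA polymerase III, had 3.45 in code 8 and 2.43 in code 11 (log2 0.51). MED2, a Mediator subunit, had 5.47 in code 8 and 3.91 in code 11 (log2 0.48), and ATP16, of the mitochondrial ATP synthase, had 7.47 in code 8 and 5.64 in code 11 (log2 0.41).

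The genes that border the centromere each share a summit with their neighbour. NHP10, of the INO80 remodeller, and RMD1 on the left had 4.70 in code 8 and 3.48 in code 11 (log2 0.43). NTH1, a trehalase, and YRB1, of nuclear transport, on the right had 5.80 in code 8 and 4.33 in code 11 (log2 0.42). PTC1 and YDR003W-A had a region over the window in both lists but no summit in it. TRP1 (YDR007W, tryptophan synthesis), just beyond 10 kb, had 7.54 in code 8 and 5.58 in code 11 (log2 0.43), and 5.38 and 5.06 in codes 8 and 11 at 0 min. The local background at these promoters stood apart too. At the NHP10 and RMD1 summit it was 1.42 times the genome-wide value in code 8 and 1.00 times in code 11, and at MED2 1.58 in code 8 and 1.00 in code 11. By the authors' fold the log2 differences of these genes ran from -0.25 (ATP16) to 0.16 (RAD57).

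**Figure D4:**
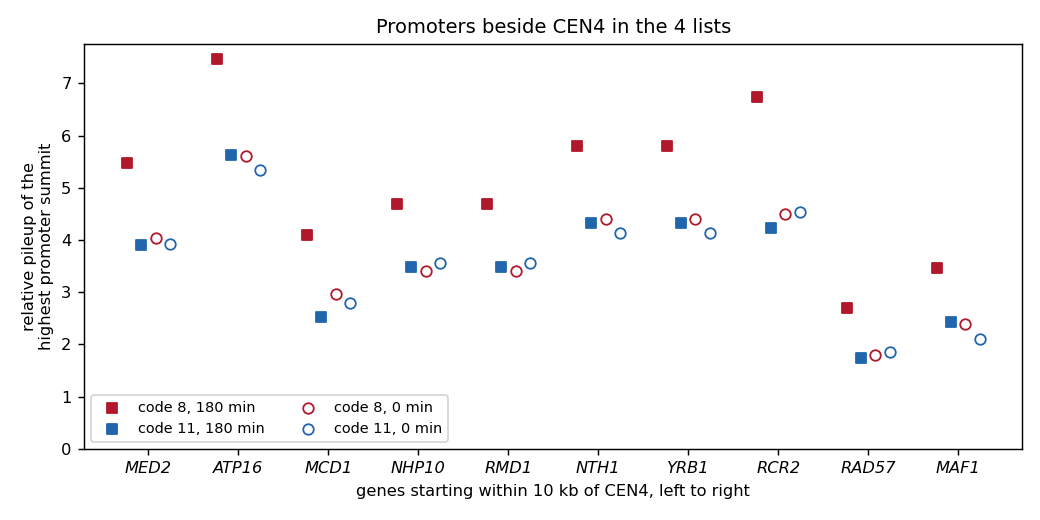
Relative pileup of the highest promoter summit (y axis) of each of the 10 genes with a promoter summit that start within 10 kb of CEN4, in chromosome order (x axis). Filled squares are 180 min and open circles 0 min, code 8 in red and code 11 in blue; NHP10 and RMD1 share a summit, as do NTH1 and YRB1. In every gene the code 8 value at 180 min is the highest of the 4, and the other 3 lie close together.

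The DNA between RMD1 and NTH1 that holds CEN4 (IV 449277 to 450219) differed between the codes at both times. Code 11 had 3 summits in it at 180 min, at 449468 (relative pileup 2.34), 449908 (2.51) and 450115 (1.56). Code 8 had 0 summits and no region there. At 0 min code 11 again had 3 summits, with 2.47, 2.27 and 1.45, and code 8 had 0. At the other 15 centromere gaps at 180 min, 8 had a summit in both lists, 5 in neither, 2 in code 11 only (XIII and XVI) and 0 in code 8 only.

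The promoters of chromosome IV that differed most were chosen among summits with a mean relative pileup of at least 2. Besides MCD1, RCR2 and RAD57, those of CDC7, MPS1, YDL009C with APC11, and TSC13 with NOP1 also lie within 50 kb of CEN4. PAU10 (YDR542W), near the right end, had 2.91 in code 8 and 1.60 in code 11 (log2 0.86, 0.73 to 0.99). It belongs to the PAU family of near-identical subtelomeric genes, so its reads may be shared with copies. CDC7, the kinase that starts DNA replication, had 3.93 in code 8 and 2.44 in code 11 (log2 0.68). The divergent promoter of YDL009C and APC11, a core subunit of the anaphase-promoting complex, had 3.65 in code 8 and 2.28 in code 11 (log2 0.68). TSC13 and NOP1 (log2 0.64) also share a divergent promoter. SIR2, the histone deacetylase of silent chromatin, had 2.75 in code 8 and 1.80 in code 11 (log2 0.61), and 1.80 and 1.76 in codes 8 and 11 at 0 min. MPS1, a kinase of the spindle checkpoint, had 3.01 in code 8 and 1.98 in code 11 (log2 0.61). HEM1, of heme synthesis, had 3.42 in code 8 and 2.28 in code 11 (log2 0.58). By the authors' fold over local background the log2 difference was 0.61 at SIR2, 0.55 at MPS1 and 0.52 at PAU10. It was 0.28 at HEM1, 0.20 at CDC7, 0.12 at MCD1, 0.07 at YDL009C with APC11 and -0.04 at TSC13 with NOP1, so these 5 were not called higher by that measure.

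The 10 lowest promoters of chromosome IV ran from -0.16 at AFR1 (3.72 in code 8 and 4.14 in code 11) to -0.04 at MRX14. BMH2 (a 14-3-3 protein, -0.15), ZIP1 (the synaptonemal complex, -0.15), GIS1 (-0.10) and MFA1 (-0.10) were among them. AMD2, INH1, VTC5, MRX14 and the pair ACK1 and MRPL11 lay between -0.08 and -0.04, and these turn positive when heights are set to the median outside chromosome IV.

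The widest difference of the pairs on chromosome IV lay inside a gene. TRR1 (YDR353W), which encodes cytoplasmic thioredoxin reductase, had a summit within its coding region (IV 1183710 in code 8, 1183702 in code 11). It had 6.58 in code 8 and 2.82 in code 11, a log2 difference of 1.22 (1.13 to 1.31). At 0 min it had 2.97 in code 8 and 2.86 in code 11. The code 8 value at 180 min thus stood alone among the 4 lists, and by the authors' fold the difference was 0.97. The promoter summit of the same gene had 5.90 in code 8 and 5.15 in code 11. GPD1, of glycerol synthesis, had 3 gene-body summits with log2 differences of 0.80, 0.78 and 0.71, and the highest of them had 6.38 in code 8 and 3.72 in code 11. The local background there was 3.56 to 3.81 times the genome-wide value in code 8 and 2.59 to 2.75 times in code 11, and by the authors' fold the differences were 0.34, 0.30 and 0.23. These gene-body summits were chosen after their values were seen.

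On the other 15 chromosomes, few promoters were higher in code 8. Of 3215 promoter heights there, 3 were called higher (0.0933%) and 29 lower (0.902%). On chromosome IV 63 of 519 were higher and 0 lower. TFC3 (YAL001C), a subunit of the RNA polymerase III factor TFIIIC, had 2.98 in code 8 and 2.20 in code 11 (log2 0.44). It had 3.60 in code 8 and 2.22 in code 11 at 0 min, so it differed at both times, and its summit lies in the gap that holds CEN1. ASF1, a histone chaperone, had 4.38 in code 8 and 3.50 in code 11 (log2 0.32), against 3.46 and 3.86 in codes 8 and 11 at 0 min. RRT8 was the third (log2 0.43). AXL2 (bud site selection), MLO127, SOF1 and CDC25 (the Ras exchange factor) followed with 0.30 down to 0.23, below the fold.

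The promoters lower in code 8 were led by LEU2 (YCL018W, leucine synthesis), which has a pair of summits in its window. The one at III 91302 in code 8 and 91315 in code 11 had 1.64 in code 8 and 3.27 in code 11 (0.501 times, with a log2 interval of -1.12 to -0.87). The taller one, at III 90998, had 7.20 in code 8 and 12.1 in code 11 (log2 -0.75, -0.82 to -0.69), and at 0 min 6.76 in code 8 and 10.6 in code 11 (-0.65). Code 11 covered the locus with 1 region from 90634 to 92943 that held 7 summits, while code 8 had 2 separate regions. A second marker gene, URA3 (YEL021W, uracil synthesis), had a promoter region in code 11 only (V 115662 to 115951), with 2.12 at 180 min and 2.45 at 0 min, and code 8 had none at either time. TIM9, whose summit at V 117165 lies next to URA3, had 2.05 in code 8 and 2.84 in code 11 (log2 -0.47), and the same -0.47 at 0 min. LEU2 and URA3 are in wide use as selection markers in laboratory strains. For codes 8 and 11 the genotypes there are not given in the sources used here. Other markers, HIS3, ADE2, MET17, LYS2, CAN1 and ADE1, had promoter summits in both lists, with log2 differences from -0.12 (ADE2) to 0.08 (CAN1).

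Several other promoters were lower in code 8, and of these HIS4, AGX1, HIS1 and SIP2 differed little at 0 min. HIS4 (YCL030C, histidine synthesis) had 5.27 in code 8 and 7.96 in code 11 (log2 -0.59, -0.67 to -0.52), against 7.20 and 7.06 in codes 8 and 11 at 0 min. AGX1, which makes glycine from glyoxylate, had 2.79 in code 8 and 4.01 in code 11 (log2 -0.52), and 3.59 and 3.43 in codes 8 and 11 at 0 min. The HIS1 summit at V 266159 in code 8 had 3.42 in code 8 and 4.67 in code 11 (log2 -0.45), while the other summit of the same promoter had 4.19 in code 8 and 4.26 in code 11. SIP2, a subunit of the Snf1 kinase, had 2.12 in code 8 and 2.93 in code 11 (log2 -0.47), and MMO1 3.80 in code 8 and 5.73 in code 11 (log2 -0.59). At 0 min MMO1 had 4.82 in code 8 and no code 11 summit within 50 bp, so no 0 min difference is given. TDH3, glyceraldehyde-3-phosphate dehydrogenase, had 15.2 in code 8 and 21.0 in code 11 (log2 -0.47). It has near-identical paralogs that may share reads, and it had 15.4 in code 8 and 18.5 in code 11 at 0 min (log2 -0.27). By the authors' fold over local background the log2 differences were -0.77 and -0.59 at the LEU2 summits, -0.43 at AGX1, -0.41 at MMO1 and -0.39 at HIS1, which were still called lower. They were -0.32 at TDH3, -0.30 at HIS4, -0.28 at SIP2 and -0.27 at TIM9, which were not. The lowest gene-body summit outside the LEU2 locus was that of REX2 (an RNA exonuclease), with 3.21 in code 8 and 5.15 in code 11 (log2 -0.68), against 4.01 and 3.89 in codes 8 and 11 at 0 min. This summit, at XII 259822 in code 8, lies in a region that also holds an SHM2 promoter summit at 259411. Which of the 2 genes it serves was not tested.

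**Figure D5:**
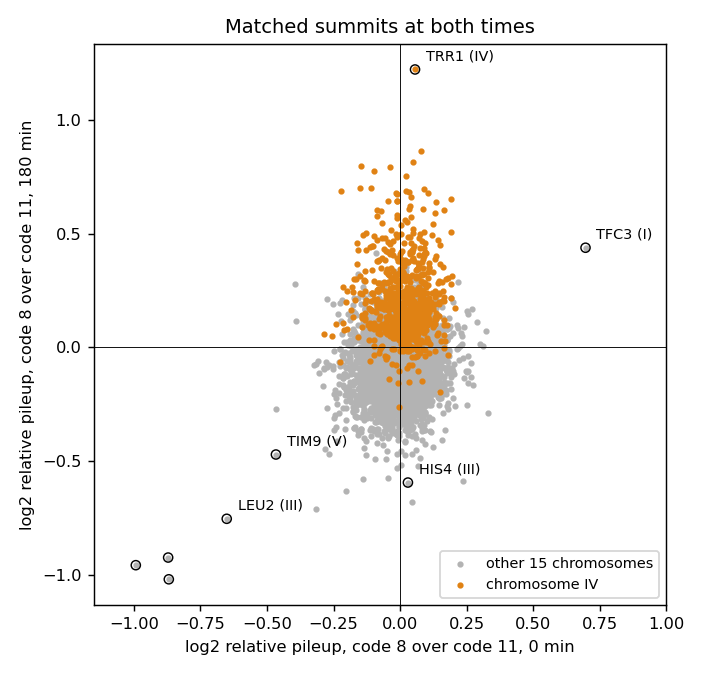
Log2 difference in relative pileup, code 8 over code 11, at 180 min (y axis) against 0 min (x axis), for summits paired at both times (762 on chromosome IV in orange, 4907 on the other 15 in grey). Circles mark summits named in the text; TFC3, TIM9 and the summits at LEU2 are off 0 on both axes, while TRR1, HIS4 and the cloud of chromosome IV are off 0 at 180 min only.

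At 0 min, 2 of these 4907 summits on the other chromosomes were called higher and 9 lower in code 8, and 0 of 762 passed the fold on chromosome IV. Of the 130 summits lower in code 8 at 180 min that could be followed, 5 were also lower at 0 min, and these belonged to LEU2, TIM9 and the DNA beside LEU2.

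In gene groups, promoters called in 1 code only were counted over all chromosomes. Of all protein-coding promoters with a summit, 3.82% were called in code 8 only and 3.32% in code 11 only. Heights of gene groups were described outside chromosome IV, where all protein-coding promoters had a median log2 difference of -0.07. Of 26 groups, 0 had a member there that was called higher in code 8, and 6 had at least 1 lower. Pheromone response genes stood lowest by median. Of 12 pheromone response genes, 8 had a height, with a median of -0.23, 2 lower and 0 higher, where 0.902% of all promoters outside chromosome IV were lower. With heights set to the median outside chromosome IV 1 was lower, as in a window of 1000 bp. AGA1 (the anchor of a-agglutinin) had 1.63 in code 8 and 2.66 in code 11 (log2 -0.71), and at 0 min 1.62 in code 8 and 2.02 in code 11. Another summit of the AGA1 promoter had 1.54 in code 8 at 180 min, where code 11 had none. At 0 min that other summit had 2.14 in code 8 and 2.27 in code 11. FUS3, the mating MAP kinase, had 1.90 in code 8 and 2.41 in code 11 (log2 -0.34). FAR1 was the highest of the group, with 3.13 in code 8 and 3.10 in code 11 (log2 0.01). FUS2, of cell fusion, had a promoter summit in code 11 only, with 2.13. The MATa-specific genes had a median of -0.15 over 6 heights, and 0 were past the fold. The lowest were ASG7 at -0.31 and BAR1 (the protease that degrades alpha-factor) at -0.24. The highest were STE6 at 0.04 and AGA2 at -0.01, both above the median of all promoters.

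Amino acid synthesis genes had promoter summits at 10 of 15 in code 8 and 13 of 15 in code 11. ARG4, LEU4 and ASN1 were called in code 11 only, and at LEU4 and ASN1 a code 8 region lay over the window. Over all protein-coding promoters with a summit, the shares were 3.32% in code 11 only and 3.82% in code 8 only. The 9 heights outside chromosome IV had a median of -0.02, and HIS4 was the 1 lower. Because HIS4, ADE17 and AGX1 were among the named promoters, the purine, histidine and one-carbon synthesis genes were also listed, after their values were seen. Of these 19 genes, ADE17 and ADE6 were called in code 11 only and ADE12 in code 8 only. Their 13 heights outside chromosome IV had a median of -0.16, with 4 lower (HIS4, GCV3, ADE4 and ADE57) and 0 higher, beside the same 0.902% of all promoters. HIS4 and ADE17, which prompted the list, are themselves in these counts. A list drawn from these same values cannot show that the group differs from other promoters. With heights set to the median outside chromosome IV 3 were lower. By the authors' fold ADE4 had -0.41 and was called lower, while HIS4 had -0.30, GCV3 -0.22 and ADE57 -0.07 and were not. GCV3, of the glycine cleavage complex, had 3.29 in code 8 and 4.44 in code 11 (log2 -0.43). ADE4, which starts purine synthesis, had 2.00 in code 8 and 2.66 in code 11 (log2 -0.41).

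The following groups had medians near that of all promoters outside chromosome IV. Ribosomal protein genes had 121 of 138 promoter summits in code 8 and 124 in code 11, a median of -0.08 over 104 heights, and 0 past the fold in either direction. RPL13A, RPL30 and RPP2A were called in code 11 only, each with a code 8 region over the window. These 3 of 124, and the tRNA counts below, stand beside 3.82% (code 8 only) and 3.32% (code 11 only) of protein-coding promoters. The tRNA genes had 216 of 275 in code 8 and 224 in code 11, a median of -0.07, 3 lower and 0 higher outside chromosome IV, with 2 called in code 8 only and 10 in code 11 only. At all 12 of these a region of the other list lay over the window. Small nucleolar RNA genes had 55 of 76 in both codes and a median of -0.04. Histone genes had 9 of 10 in both codes and a median of -0.06. Heat shock genes had 9 of 12 in both and a median of -0.09, with 0 past the fold. Ergosterol genes had 10 of 16 in both and a median of -0.09, and chromatin remodeller genes 8 of 14 in both and a median of -0.07.

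Groups tied to the cell cycle and to chromosome segregation held several of the chromosome IV genes named above. Higher calls are common on that chromosome, with 63 of 519 promoters. Of its summits within 10 kb of CEN4, as at MCD1, 100% were higher. The share was 69.2% from 25 to 50 kb (MPS1) and 25.2% from 100 to 200 kb (DUN1). Outside chromosome IV the medians were -0.07 for late G1, -0.11 for kinetochore and checkpoint and -0.06 for DNA damage genes. Cohesin and condensin genes had 0.04 over 3 heights, and 0 members of these groups were past the fold there. Late G1 genes had promoter summits at 8 of 14 in code 8 and 11 in code 11. RNR1 and CLN2 (a region over the window in both lists) and SMC3 (no code 8 region) were called in code 11 only. The 1-code calls in these small groups stand beside the same 3.32% (code 11 only) and 3.82% (code 8 only) of protein-coding promoters. Of 13 cohesin and condensin genes, 6 had a promoter summit in code 8 and 7 in code 11, with MCD1 higher and SMC3 called in code 11 only. Of 15 kinetochore and checkpoint genes, 9 had one in code 8 and 10 in code 11. IPL1, the Aurora kinase, was called in code 11 only, and MPS1 was higher in code 8. CSE4, the centromeric histone, had no region over its window in either list. In the DNA damage list RAD9 was called in code 8 only, as were 7.16% of the chromosome IV promoters with a code 8 summit. DUN1, also on chromosome IV, had 2.37 in code 8 and 1.83 in code 11 (log2 0.37). The early G1 genes of daughter cells had summits at 4 of 10 in both codes, with a median of -0.15. In this group SCW11 and CTS1 had a region over the window in both lists and no summit in it, as had GAL1. Mitotic genes of the CLB2 cluster had 6 of 10 in both codes and a median of -0.06. Galactose genes (5 of 7 in both) had a median of -0.12, led by GAL4 with 2.55 in code 8 and 3.17 in code 11 (log2 -0.32), just under the fold. General stress genes had 8 of 12 in code 8 and 6 in code 11, with TFS1 (a code 11 region over the window) and GAD1 (no code 11 region) called in code 8 only. In glycolysis, FBA1 had a summit in code 11 only, with a code 8 region over the window, and TDH3 was the 1 member past the fold.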

How the data were processed

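ATAC-seq libraries of 8 samples in 4 groups were sequenced as paired-end reads, per the labels' protocols. Per the submitters' processing notes, the build was sacCer3 and the tools were MACS2 2.2.4, HOMER, Picard, SAMtools and Bowtie2 2.3.4.3, with no roles stated. Any shift for the Tn5 cut and any pooling of experiments are not given in the sources used here. Deposited lists hold, per sub-peak, a score by the authors, the authors' fold over local background (a linear ratio), and the authors' -log10 p and -log10 q. Code and time come from the list names.

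Summits were paired within 50 bp as mutual nearest. Pileup and local background were solved from the authors' fold, (pileup + 1)/(background + 1), and the Poisson -log10 p. The pileup came out whole within 0.05 for 99.8% of summits in code 8 and 99.6% in code 11. The genome-wide background is the lowest local background of a list. A summit was called higher at 25% or more above, and lower at 20% or more below. Regions are sub-peaks with equal coordinates, and overlap means at least 1 bp. Intervals are exact 95% Clopper-Pearson intervals, for a ratio of pileups conditional on their sum, and cover counting error only. PCR copies and overlapping fragments are not independent.

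Gene names and positions came from the RefSeq table of assembly R64, with strand read from systematic names. A centromere was placed midway between the genes on either side. Named genes are, per code, ranked by -log10 q, the top 10 promoters where the other list has no region in the window and the top 10 gene-body summits outside the other list's regions; the 10 highest and 10 lowest promoter heights with mean relative pileup of at least 2, on chromosome IV and elsewhere; genes within 10 kb of CEN4; list members; and preset single genes. Other genes named (RRT8, gene-body heights and those of the purine list) were chosen after their values were seen. The comparison, gene lists and rules were chosen with earlier results of these data known. Alternatives were other pairing distances, a -log10 q of at least 20, lists of equal length, other scales, folds, windows and overlaps. Code was tested on simulated data. Python 3.11.15, pandas 2.3.3 and scipy 1.17.1 were used.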

Additional observations from a re-analysis of the deposited data

How the results depend on the processing

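The height contrast between chromosome IV and the others together kept its direction under the 4 alternatives that could change it. Its size by the authors' fold over local background was 0.0207, against 0.263 (log2). By that fold the chromosome IV median lay within the range of the other chromosome medians, below those of I and X. With a -log10 q of at least 20 the code 8 summits without a partner numbered 333, 122 of them on chromosome IV. With 50% reciprocal overlap, 267 code 8 and 294 code 11 regions had no counterpart. The median log2 difference of all pairs was -0.0643, and 0.0208 when heights were set to the median outside chromosome IV. Summits called higher and lower were then 324 and 43; by the authors' fold they were 52 and 72, and at a 1.5-fold limit 30 and 11. With a mean relative pileup of at least 2, 119 were higher. In a window of 1000 bp the median of a gene group, minus that of all promoters outside chromosome IV, changed sign for tRNA (-0.021), heat shock (0.00539), amino acid synthesis (-0.00423) and phosphate genes (-0.00279). Apart from scales and limits defined by their construction, the cause was not tested. Leaving out 26 rescaled values that cannot change by construction, the other 38 values of the main results and 21 of the gene groups stayed on the same side.

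No paired analysis was possible because the lists carry no replicate number, and for the same reason no replicate could be left out. With 1 list per code, differences between the codes cannot be set against the spread between experiments. The background pileup of code 11 was 1.17 times that of code 8, and the part of this depth in the calls was not tested.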
